A study of Rattus norvegicus with 24 samples.

Results

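The genes described here are 9 members of the cell death and inflammasome machinery: the death receptors Fas, Tnfrsf1a and Tnfrsf21, the death effectors Siva1 and Dap, the adaptor Pycard, and the caspases Casp1, Casp8 and Casp9. They were chosen by name, as probes that the platform annotation gives to one of these symbols, and each had 1 such probe, so that 9 of 27342 probes and 9 of the 14324 genes with a symbol are described. Thoracic propriospinal (TPS) neurons, which link spinal segments and send axons down the cord, were laser dissected from the intermediate gray matter of segments T5 to T8 in female Long Evans rats (77 ± 10 days old), and their amplified RNA was hybridized to 1 array per rat. All rats, controls included, had received the retrograde tracer Fluoro-Gold in the lumbosacral enlargement, so the cells are those whose axons reach that level, and the transection at T9 followed 1 week later and cut these axons. The transected groups are named 3d post (n = 4), 1wk post (n = 4), 2wk post (n = 2) and 1m post (n = 2) for the time after injury, and the non-injured groups are 4d ctrl, 2wk ctrl and 1m ctrl (n = 4 each), which were taken to be the non-injured groups that the study's scheme places 10 days, 3 weeks and 5 weeks after labelling (for 4d ctrl its label and the scheme differ, so this match is an assumption). Rats at 3 days and at 1 week were both set against 4d ctrl and so share their controls, although 1wk post was taken 2 weeks after labelling and has no control of its own time.

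Fas and Tnfrsf1a are cell surface receptors with an intracellular death domain, which on binding Fas ligand or tumor necrosis factor gathers adaptor proteins and Casp8, the initiator caspase of the extrinsic pathway. Casp9 is the initiator of the intrinsic pathway and is activated on a platform of Apaf1 and cytochrome c released from mitochondria. Pycard (ASC) instead joins inflammasome sensors to Casp1, which cleaves the precursors of interleukin-1 beta and interleukin-18, and in the central nervous system this adaptor is best known from microglia, although inflammasomes have been described in neurons as well.

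The promoter windows are shown first for the 4 members that had an unadjusted limma p under 0.05 at 3 days, so that letters shared or not shared by genes with similar values can be compared. Each window holds 250 bases before and 50 bases from the annotated start, on the strand of the gene, taken from RefSeq on build GRCr8: Fas on chr1:241211905-241212204 (plus strand), Dap on chr2:83909863-83910162 (plus strand), Pycard on chr1:192033370-192033669 (minus strand) and Tnfrsf1a on chr4:159836869-159837168 (plus strand). Capitals mark matches, on either strand, to any of 5 motifs that were searched: GGGCGG (the GC box), GAGGAAGT (an ETS site of the PU.1 type), TGACTCA (AP-1), TTCNNNGAA (STAT), and GAAA repeated after any 2 bases (interferon response element type).
Fas: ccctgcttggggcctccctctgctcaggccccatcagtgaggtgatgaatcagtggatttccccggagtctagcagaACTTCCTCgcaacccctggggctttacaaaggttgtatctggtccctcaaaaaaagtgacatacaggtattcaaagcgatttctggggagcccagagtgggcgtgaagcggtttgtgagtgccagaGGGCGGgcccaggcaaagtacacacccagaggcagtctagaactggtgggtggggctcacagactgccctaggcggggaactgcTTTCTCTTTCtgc
Dap: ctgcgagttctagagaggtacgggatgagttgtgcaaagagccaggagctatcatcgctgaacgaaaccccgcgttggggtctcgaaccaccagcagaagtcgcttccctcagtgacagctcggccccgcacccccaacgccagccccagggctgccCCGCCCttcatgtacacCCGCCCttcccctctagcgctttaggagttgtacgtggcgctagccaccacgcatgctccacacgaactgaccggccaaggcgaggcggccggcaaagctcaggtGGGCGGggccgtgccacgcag
Pycard: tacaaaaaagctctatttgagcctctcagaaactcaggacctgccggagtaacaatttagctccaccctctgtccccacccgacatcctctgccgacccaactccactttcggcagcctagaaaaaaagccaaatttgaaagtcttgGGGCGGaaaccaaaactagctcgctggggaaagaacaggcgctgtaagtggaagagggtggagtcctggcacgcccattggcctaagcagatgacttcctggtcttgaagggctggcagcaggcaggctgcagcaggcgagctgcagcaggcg
Tnfrsf1a: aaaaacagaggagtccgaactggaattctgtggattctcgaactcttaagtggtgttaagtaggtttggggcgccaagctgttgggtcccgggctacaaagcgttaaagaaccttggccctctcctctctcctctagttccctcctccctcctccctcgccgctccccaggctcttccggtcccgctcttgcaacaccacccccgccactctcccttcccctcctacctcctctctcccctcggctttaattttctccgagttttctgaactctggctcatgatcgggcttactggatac
Of the 9 members, 8 matched an entry and Casp8 did not. GGGCGG was in 7 of the 8 windows (Fas, Tnfrsf21, Siva1, Dap, Pycard, Casp1 and Casp9), where 33.1% of all 33469 promoter windows hold it. The Dap window and the Casp9 window, which is not printed, each held 3 separate copies. GAGGAAGT, which 2.42% of all windows hold, was in the Fas window alone, on the opposite strand. The GAAA repeat (3.92% of all windows) was in Fas and Casp1. The letters of TGACTCA (4.63%) and TTCNNNGAA (8.87%) were in none of the 8 windows, and the Tnfrsf1a window held none of the 5 motifs. The matches in the printed windows did not overlap one another, and a match of letters is not a measured site.

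Values are log2 of the deposited intensities, and differences are log2 differences of group means from one limma fit over the 24 arrays, with standard errors (SE) and p-values adjusted over 23240 probes by the Benjamini-Hochberg method. A gene was called at an adjusted p under 0.05. The number of arrays limits the precision. Array medians ran from 73.6 to 81.3 in intensity, and the mean correlation of an array with the others of its group ran from 0.966 to 0.990. The lowest was 4d ctrl 3, which also had the lowest array quality weight (0.328, next 4d ctrl 4 with 0.477), so results at 3 days and 1 week are given with and without it. Of the neuronal genes, Snap25 (12.28 on average), Nefm (12.07) and Rbfox3 (8.88) were measured on every array. The markers of microglia and macrophages were also above the lowest value of the table on every array. So were the markers of every other cell type listed, neutrophils and lymphocytes included, and being above that value does not show that a marker was expressed. At 3 days, 18 of 18 tested microglia and macrophage markers were higher than in 4d ctrl and 12 passed the test, with a median difference of 1.13 (-0.0082 over all probes). The summed intensity of the 18 markers ran from 8450.2 to 11990.7 in 3d post and from 2640.1 to 6890.3 in 4d ctrl, and no marker was at the table's lowest value of 17. Of 12 neuron markers 9 were lower at 3 days and 3 higher, with Rbfox3 (-0.40) and Ina (-0.37) called lower and Tubb3 (0.34) called higher. Of 9 astrocyte markers 7 were lower, with Slc6a11 (-1.34) and Kcnj10 (-0.89) called. The other 2, Gfap (0.91, SE 0.37) and Slc1a3 (0.22, SE 0.21), were higher and not called. The part of these markers in the results below was not tested. In RNA pooled from dissected profiles, more cells of a type and more RNA per cell cannot be told apart.

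**Figure D1:**
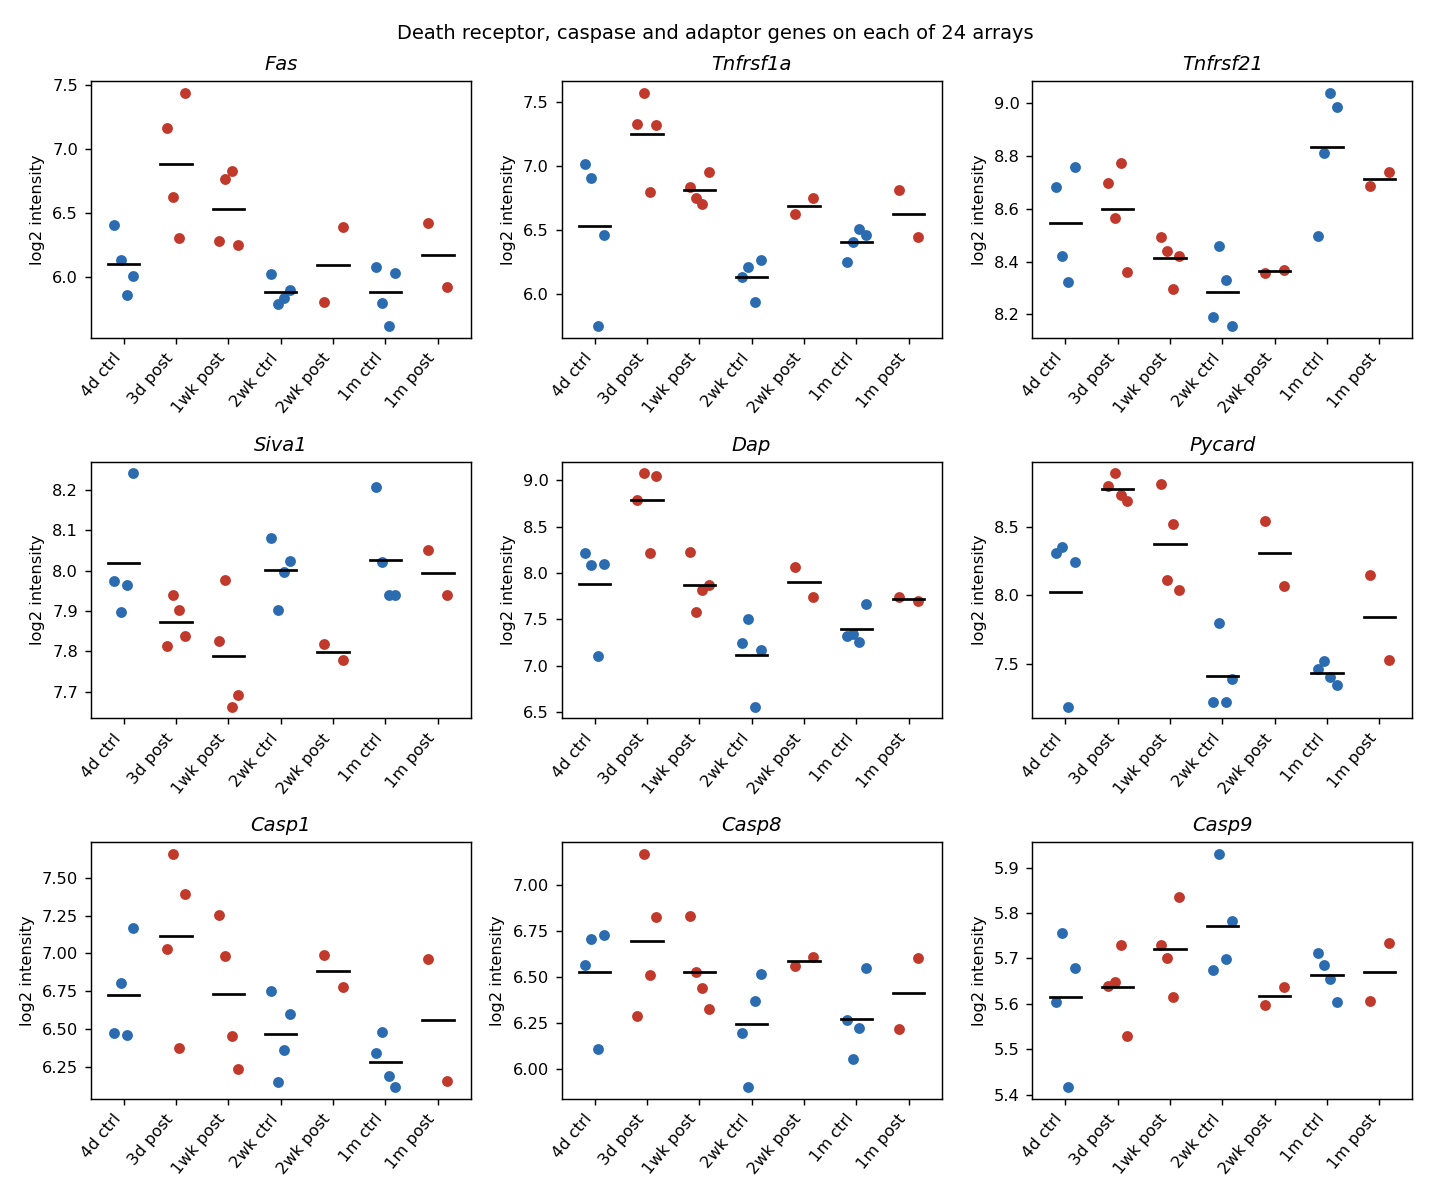
Log2 intensity of the 9 genes on each of 24 arrays, by group, with controls in blue, transected rats in red and the group mean as a black line (each panel has its own vertical axis, which does not start at 0). For Dap and Pycard the 4 arrays of 3d post sit above the 4 arrays of 4d ctrl, and 4d ctrl 3 sits far below the other 3 controls of its group.

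At 3 days after transection, Fas and Dap were higher in the RNA of the dissected TPS neuron profiles than in 4d ctrl, by 0.78 and 0.91 on the log2 scale (1.72-fold and 1.87-fold). They were 2 of the 9 members called, both higher, where 2.00% of all probes were called higher and 2.89% in either direction. Tnfrsf1a and Pycard gave differences of 0.72 and 0.75 that did not pass, and the other 5 members lay between -0.15 and 0.39. Unadjusted, 4 members had a p under 0.05, as did 14.2% of all probes. The median of the 9 differences was 0.39, against -0.0082 over all probes tested.

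Fas, the receptor of Fas ligand, gave 7.16, 6.62, 6.30 and 7.44 in 3d post and 6.41, 6.13, 5.86 and 6.01 in 4d ctrl. Arrays 1, 2 and 4 of 3d post were above every control of the series, while array 3 fell below 4d ctrl 1, so the groups overlapped. The difference was 0.78 (SE 0.21, 95% interval 0.35 to 1.21, adjusted p = 0.0441 in limma), and without 4d ctrl 3 it was 0.70 with an adjusted p of 0.110.

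Dap (death-associated protein), first known in human cells from a screen for genes needed for interferon-induced death and later as a suppressor of autophagy, gave 8.79, 9.08, 8.22 and 9.04 in 3d post and 8.21, 8.09, 7.11 and 8.10 in 4d ctrl. The groups did not overlap, but the lowest transected array (8.22) and the highest control (8.21) were almost level, and the low mean of the controls rested in part on 4d ctrl 3. The difference was 0.91 (SE 0.23, 95% interval 0.42 to 1.39, adjusted p = 0.0342 in limma), and without 4d ctrl 3 it was 0.65 with an adjusted p of 0.103.

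Tnfrsf1a, the main death-domain receptor of tumor necrosis factor, gave 7.33, 7.57, 6.79 and 7.32 in 3d post and 7.02, 6.91, 5.75 and 6.46 in 4d ctrl. The groups overlapped, as 3d post 3 lay below 2 of the controls. The difference of 0.72 (SE 0.20) had an adjusted p of 0.0528 in limma, and it was 0.46 without 4d ctrl 3.

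Pycard gave 8.79, 8.89, 8.73 and 8.69 in 3d post and 8.31, 8.35, 7.19 and 8.25 in 4d ctrl. The 4 transected arrays were close together and above all controls of the series, and 3 of the 4 controls of 4d ctrl were close together while 4d ctrl 3 was more than 1 lower. The difference was 0.75 (SE 0.22, adjusted p = 0.0675 in limma), and 0.47 without 4d ctrl 3. Dap and Pycard were the 2 of 9 members whose 3d post and 4d ctrl arrays did not overlap, both higher, where 5.51% of all probes did so and 2.75% in that direction.

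Casp1, the caspase that Pycard recruits, gave 7.03, 7.66, 6.38 and 7.39 in 3d post and 6.47, 6.80, 6.46 and 7.17 in 4d ctrl, and 3d post 3 was the lowest of these 8 arrays. Its difference of 0.39 (SE 0.25) had a 95% interval of -0.14 to 0.92. Casp8 differed by 0.17 (SE 0.18, interval -0.20 to 0.55), with arrays from 6.28 to 7.17 in 3d post and from 6.10 to 6.73 in 4d ctrl. Casp9 differed by 0.022 (SE 0.078, interval -0.14 to 0.18), and its arrays spanned 5.53 to 5.73 and 5.42 to 5.76. Without 4d ctrl 3 the differences were 0.30 for Casp1, 0.031 for Casp8 and -0.043 for Casp9. The interval of Casp9 was narrow, whereas that of Casp1 reached as far as the difference of Dap. The mean of Casp9 over the 24 arrays, 5.67, was the lowest of the members (percentile 33.1 of all probes). At such a low value a narrow interval need not mean that the gene was unchanged.

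Tnfrsf21 (death receptor 6), a receptor with a death domain that is prominent in developing neurons, gave 8.70, 8.56, 8.77 and 8.36 in 3d post and 8.68, 8.42, 8.32 and 8.76 in 4d ctrl. The groups covered the same range, and the difference was 0.054 (SE 0.12, interval -0.19 to 0.30). Siva1, a pro-apoptotic protein that binds the cytoplasmic tail of the receptor CD27, was the 1 member with a negative difference at this time, -0.15 (SE 0.085, adjusted p = 0.485 in limma), with 7.81 to 7.94 in 3d post and 7.90 to 8.24 in 4d ctrl. Without 4d ctrl 3, Tnfrsf21 was at -0.021 and Siva1 at -0.17.

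Both calls at 3 days depended on the arrays. Without 4d ctrl 3 no member was called, although 683 probes were, and the 9 differences had a median of 0.30. Without 3d post 1, 2 or 4 no member was called either, and without 4d ctrl 2 or 4 Fas was not (adjusted p = 0.0732 and 0.102 in limma). With 3d post and 4d ctrl alone in the model, the adjusted p was 0.304 for Fas and 0.297 for Dap, and after Benjamini-Hochberg adjustment the methods' t-test called neither. Without adjustment, as the study used it, that test put Fas, Dap and Pycard under 0.05, 3 of the 9 members, where 8.61% of all probes were. With 4d ctrl 1 and 2 alone as controls, a setting chosen after the data were seen, Fas differed by 0.61 (adjusted p = 0.342), Dap by 0.63 (0.269), Pycard by 0.45 (0.400) and Tnfrsf1a by 0.29 (0.510), all in limma.

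**Figure D2:**
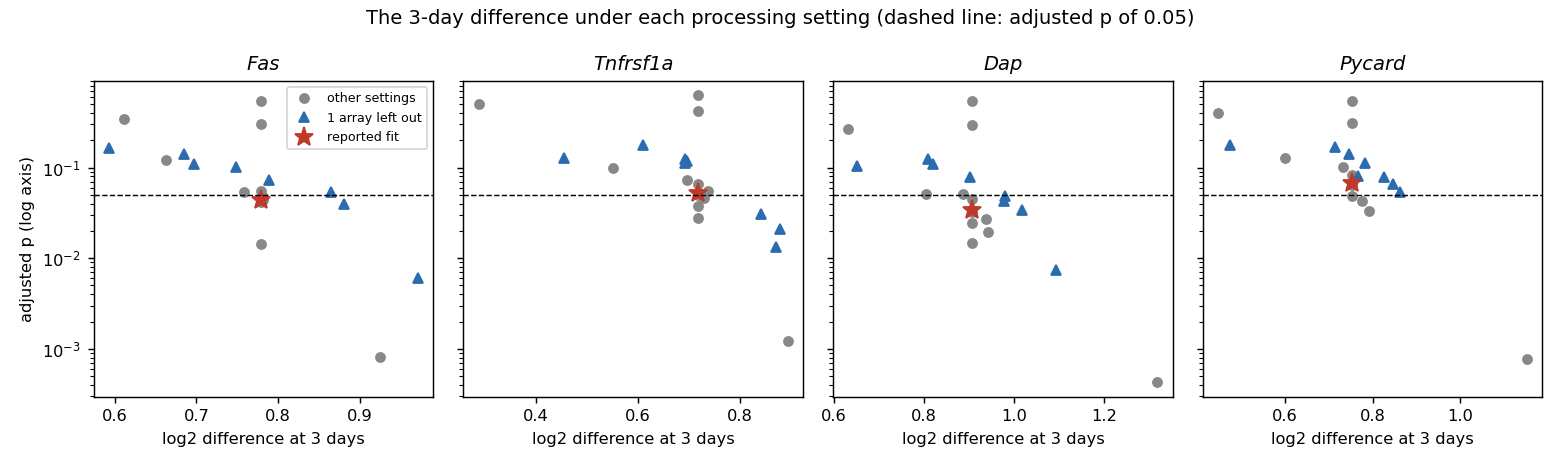
Log2 difference (3d post minus 4d ctrl, horizontal axis) and adjusted p (vertical log axis) of Fas, Tnfrsf1a, Dap and Pycard under each processing setting, with the reported fit as a star, settings that leave out 1 array as triangles and other settings as circles. Differences stayed above 0 under every setting plotted, while the points of each gene lie on both sides of the dashed line at an adjusted p of 0.05.

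**Figure D3:**
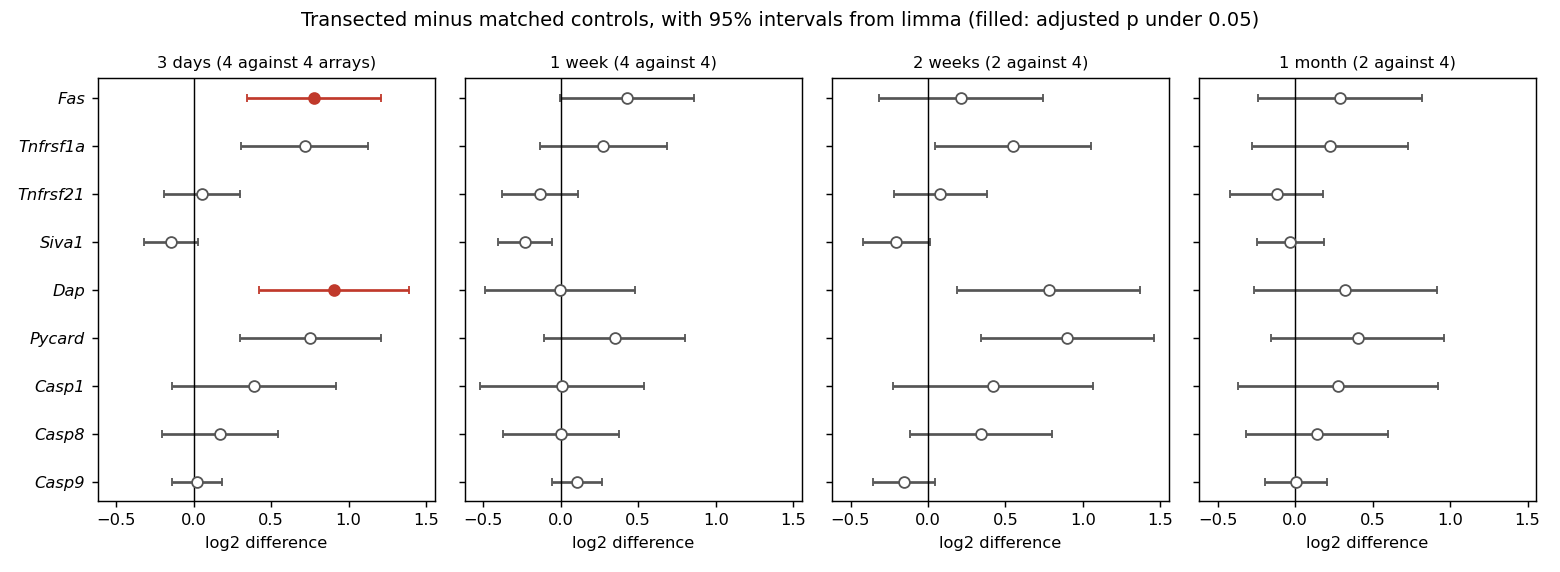
Log2 difference between transected rats and their matched controls (4d ctrl for 3 days and 1 week) for the 9 genes at 4 times, with 95% intervals from limma. Filled red points mark an adjusted p under 0.05, which Fas and Dap reached at 3 days.

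At 1 week after transection Dap differed from 4d ctrl by -0.0047 (-0.26 without 4d ctrl 3), and 3d post lay above 1wk post by 0.91 (SE 0.23, adjusted p = 0.0376 in limma), the 1 member of 9 called between these times, where 2.47% of all probes were. In Dap the groups overlapped, and 6.68% of all probes did not. The 1wk post arrays of Dap were 8.23, 7.58, 7.81 and 7.87. The 3d post array 3 (8.22) lay just below 1wk post 1, and the other 3 arrays of 3d post lay above all of 1wk post. Without 3d post 1, 2 or 4, or without 1wk post 2, 4 or 5, the adjusted p of this difference was 0.0805 to 0.137. The microglia and macrophage markers moved the same way between these times, with 18 of 18 higher in 3d post and 7 called (median difference 0.70), and their part was not tested.

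Against 4d ctrl, limma called none of the 9 members at 1 week, where 0% of all probes were called, and the methods' t-test called none, adjusted or, where 2.78% of all probes were under 0.05, unadjusted. Siva1 was the 1 member with an unadjusted p under 0.05, as were 4.44% of all probes. Its arrays were 7.83, 7.98, 7.66 and 7.69, so that 3 of the 4 lay below all of 4d ctrl, and it differed by -0.23 (SE 0.085, unadjusted p = 0.0129). Fas gave 6.28, 6.76, 6.82 and 6.25, between its levels in 4d ctrl and 3d post, with a difference of 0.43 (SE 0.21, interval -0.0057 to 0.86). Pycard gave 8.81, 8.11, 8.52 and 8.04 and Tnfrsf1a 6.84, 6.75, 6.70 and 6.95, with differences of 0.35 (SE 0.22) and 0.28 (SE 0.20). Both rested on 4d ctrl 3, without which they were 0.070 for Pycard and 0.014 for Tnfrsf1a. Without that array Fas was at 0.35, Siva1 at -0.25, Tnfrsf21 at -0.21 (with it -0.13), Casp9 at 0.041 (with it 0.11), Casp8 at -0.14 and Casp1 at -0.081. Casp1 (0.0064), Casp8 (0.0028) and Dap (-0.0047) lay near 0, with the widest interval, -0.52 to 0.53, in Casp1. No member had groups that did not overlap, where 1.76% of all probes did.

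At 2 weeks after transection, with 2 arrays in 2wk post, Pycard gave 8.55 and 8.07 against 7.22, 7.80, 7.23 and 7.39 in 2wk ctrl. Dap gave 8.06 and 7.74 against 7.25, 7.51, 6.56 and 7.17, and Tnfrsf1a gave 6.62 and 6.75 against 6.13, 6.21, 5.94 and 6.26. In these 3 genes both transected arrays lay above the 4 controls. The differences were 0.90 (SE 0.27, unadjusted p = 0.00312) for Pycard, 0.78 (SE 0.28, unadjusted p = 0.0122) for Dap and 0.55 (SE 0.24, unadjusted p = 0.0342) for Tnfrsf1a. Their adjusted p-values in limma were 0.688, 0.801 and 0.887, and none of the 9 members was called, where 0% of all probes were, nor by the methods' t-test after adjustment. Unadjusted, that test put Tnfrsf1a, Siva1 and Pycard under 0.05, as it did 6.68% of all probes. In limma, Pycard, Dap and Tnfrsf1a were the 3 of 9 members with an unadjusted p under 0.05, as were 5.29% of all probes.

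At this time 5 members were higher without overlap (Tnfrsf1a, Dap, Pycard, Casp1 and Casp8) and 2 were lower without overlap (Siva1 and Casp9), where 9.90% of all probes were higher and 7.82% lower without overlap, 17.7% in all. Casp1 gave 6.99 and 6.78 against 6.15 to 6.75, and Casp8 gave 6.56 and 6.61 against 5.90 to 6.51. Siva1 gave 7.82 and 7.78 against 7.90 to 8.08, a difference of -0.20 (SE 0.10). The Fas arrays, 5.80 and 6.38, were near the lowest control and above the highest (5.79 to 6.02). In 2wk post 17 of the 18 microglia and macrophage markers were higher than in 2wk ctrl, none called, with a median difference of 0.72. Their summed intensity was 4681.6 to 6180.2 against 2922.2 to 3745.0, and their part was not tested.

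At 1 month, Pycard gave 8.15 and 7.53 in 1m post against 7.35 to 7.52 in 1m ctrl, and Dap gave 7.74 and 7.70 against 7.26 to 7.67. These were the 2 members without overlap, both higher, where 13.5% of all probes did not overlap and 5.93% were higher, and for both the gap to the nearest control was small. The differences were 0.40 (SE 0.27) and 0.32 (SE 0.28). That of Pycard was 0.093 without 1m post 1 and 0.71 without 1m post 2, so that it depended on single transected rats, while Dap stayed between 0.28 and 0.41 with any 1 array left out. Without 1m post 1 or 2, Fas (0.29) was at 0.045 or 0.54 and Tnfrsf1a (0.22) at 0.039 or 0.40. None of the 9 members was called by limma, where 0% of all probes were called, or by the methods' t-test, adjusted or (5.09% of all probes) unadjusted, and none had an unadjusted p under 0.05, as 3.44% of all probes did. Casp1 gave 6.96 and 6.15 against 6.11 to 6.48, and Fas gave 6.42 and 5.92 against 5.61 to 6.08, so that in each the 2 transected rats differed by more than the groups did. In 1m post 17 of the 18 microglia and macrophage markers were higher than in 1m ctrl, none called, with a median difference of 0.53 and a summed intensity of 4383.8 to 4650.9 against 2860.4 to 3320.5, and their part was not tested. Differences of differences between 3 days and 2 weeks or 1 month called no member in limma (smallest adjusted p = 0.800), where each called 0.0904% of all probes, so a decline after 3 days was not shown for any member by these tests apart from Dap against 1 week.

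Averaged over the 4 times, Pycard had the smallest p of the members, with a mean difference of 0.60 (SE 0.13, adjusted p = 0.0522 in limma), Dap 0.50 (SE 0.14), Tnfrsf1a 0.44 (SE 0.12) and Fas 0.43 (SE 0.13). None of the 9 was called by limma, where 0.404% of all probes were, or, after Benjamini-Hochberg adjustment over all probes, by the methods' 2-factor analysis of variance. In limma 5 had an unadjusted p under 0.05, as did 8.87% of all probes. Without 4d ctrl 3 the limma averages were 0.46 for Pycard (adjusted p = 0.0692), 0.37 for Dap, 0.31 for Tnfrsf1a and 0.39 for Fas. For its apoptosis list the study used an unadjusted threshold of 0.01 on permuted data. The analysis of variance run here had no permutation, and 4d ctrl was entered at both early times. Its p-values therefore count the same control rats again, as if they were new animals. At 0.01 it gave the same 5 members as limma (Fas, Tnfrsf1a, Siva1, Dap and Pycard), where 4.02% of all probes passed. Of these, the study reported Siva1, Dap and Pycard as changed. Fas and Tnfrsf1a were in its list but not among the genes it reported. The mean difference of Siva1 in limma was -0.15 (SE 0.052), and this gene was below its controls on average at each of the 4 times. Tnfrsf21 (-0.030, interval -0.18 to 0.12) and Casp9 (-0.0050, interval -0.10 to 0.094) had narrow intervals around 0, for Casp9 at a low mean value (5.67).

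The control groups differed among themselves. Tnfrsf21 gave 8.50, 8.81, 9.04 and 8.98 in 1m ctrl and 8.19, 8.46, 8.33 and 8.16 in 2wk ctrl, with no overlap, as for 10.6% of all probes in that direction, and was higher in 1m ctrl by 0.55 (SE 0.12, adjusted p = 0.0103 in limma). It was the 1 of 9 members called between controls, in a comparison where 10.2% of all probes were called, while 2wk ctrl and 1m ctrl against 4d ctrl called 0% and 0.00430%. Its 1m post arrays (8.69 and 8.74) lay within the range of 1m ctrl, and its 2wk post arrays (8.36 and 8.37) within that of 2wk ctrl. Pycard and Dap were lower in the later controls than in 4d ctrl, Pycard by -0.61 (SE 0.22) in 2wk ctrl and -0.59 (SE 0.22) in 1m ctrl, and Dap by -0.76 (SE 0.23) and -0.48 (SE 0.23), with adjusted p from 0.163 to 0.381 in limma. Without 4d ctrl 3 the gaps to 2wk ctrl widened to -0.89 for Pycard (adjusted p = 0.00768 in limma) and -1.01 for Dap (0.00893). With that array left out many more probes passed as well. The control comparisons then gave 4928 probe calls in all, where a probe can count more than once. The 3 other arrays of 4d ctrl had more of both genes than any array of the later controls, and the microglia and macrophage list followed, at 7.74 to 8.06 in mean log2 on those 3 arrays and 6.90 to 7.26 in the later controls.

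Over the 7 groups, the means of Pycard ran from 8.78 in 3d post through 8.37 (1wk post), 8.31 (2wk post), 8.02 (4d ctrl), 7.84 (1m post) and 7.44 (1m ctrl) to 7.41 (2wk ctrl). Neighbours in that order overlapped in their arrays, except 1m post and 1m ctrl. For Dap the order was 3d post (8.78), 2wk post (7.90), 4d ctrl (7.88), 1wk post (7.87), 1m post (7.72), 1m ctrl (7.40) and 2wk ctrl (7.12), and the arrays of 3d post and 2wk post, and of 1m post and 1m ctrl, did not overlap. For Fas the order was 3d post (6.88), 1wk post (6.53), 1m post (6.17), 4d ctrl (6.10), 2wk post (6.09), 2wk ctrl (5.88) and 1m ctrl (5.88), and each neighbour overlapped the next.

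Some members followed the microglia and macrophage markers over the arrays more closely than others. The Pearson r with the mean log2 of the 18 markers over 24 arrays was 0.94 for Pycard, 0.90 for Dap, 0.88 for Tnfrsf1a, 0.76 for Fas, 0.69 for Casp1 and 0.64 for Casp8. It was -0.023 for Tnfrsf21, -0.045 for Casp9 and -0.43 for Siva1. In the 12 control arrays alone, without injury, it was 0.94 for Pycard, 0.74 for Dap, 0.70 for Tnfrsf1a, 0.65 for Casp8, 0.58 for Fas and 0.56 for Casp1. In these 12 arrays the mean of 9 astrocyte markers gave 0.78 for Pycard, 0.77 for Dap and 0.75 for Tnfrsf1a, the latter pair as high as with the microglia list, and over all 24 arrays it gave 0.40, 0.32 and 0.40. Over 24 arrays the neuron markers gave negative r for Fas (-0.65), Dap (-0.58), Casp1 (-0.56), Pycard (-0.55), Casp8 (-0.53) and Tnfrsf1a (-0.52). In the 12 controls these ran from -0.40 to -0.025. The neuron r over 24 arrays was positive for Tnfrsf21 (0.47), Siva1 (0.37) and Casp9 (0.16). In the controls Tnfrsf21 gave 0.81 with endothelium, 0.70 with oligodendrocyte and 0.67 with neuron markers. All these are descriptions over arrays that share their groups. Within 4d ctrl the r with the microglia and macrophage list rests on array 3, which was lowest in Pycard, Dap and Tnfrsf1a and in that list (6.85) alike. Among pairs of members, Tnfrsf1a and Dap (0.90), Dap and Pycard (0.88) and Tnfrsf1a and Pycard (0.84) were most alike, while Tnfrsf21 and Casp9 had an r of at most 0.19 with any other member.

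**Figure D4:**
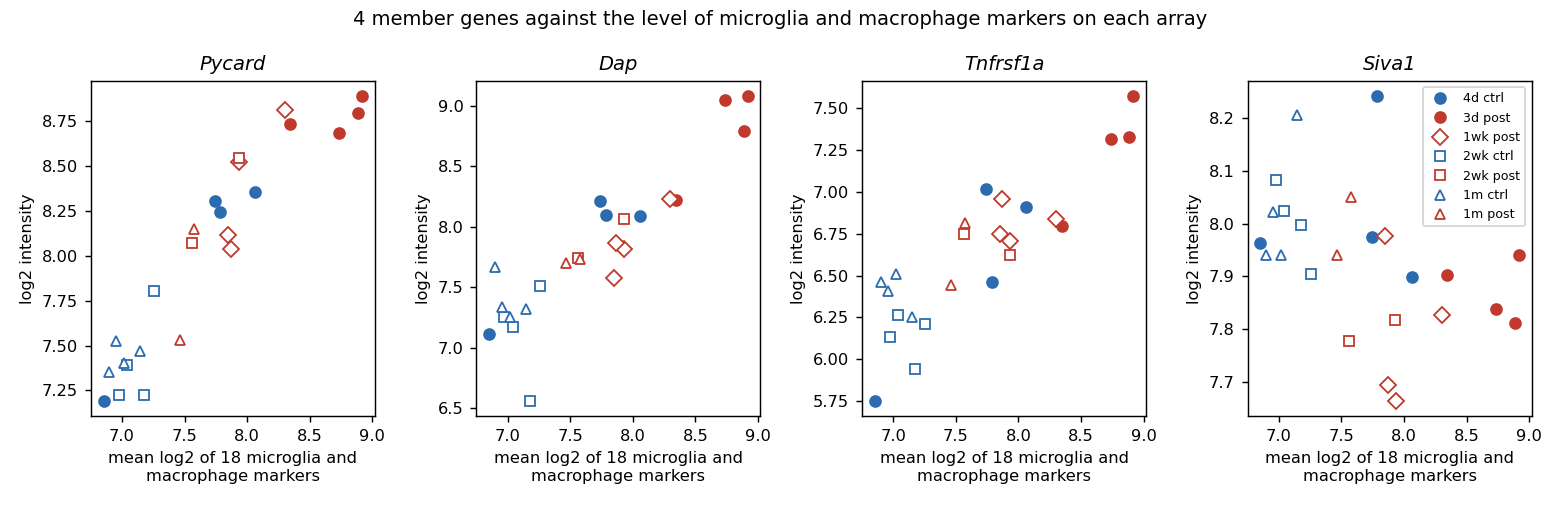
Log2 intensity of Pycard, Dap, Tnfrsf1a and Siva1 (vertical axes, not starting at 0) against the mean log2 of 18 microglia and macrophage markers (horizontal axis) on each of 24 arrays, controls in blue and transected rats in red, with a symbol for each group. Pycard follows the markers in controls and transected rats alike (r of 0.94 over 24 arrays), with 4d ctrl 3 at the lower left, and Siva1 does not (r of -0.43).

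Among 12990 genes, those most like Dap over the 24 arrays were Clic1, an intracellular chloride channel protein (r of 0.93), Smc2, a condensin subunit (0.93), and RT1-DMb, a class II histocompatibility gene (0.93). Those most like Fas were Tagln2, an actin-binding protein (0.87), Trpc6, a cation channel (0.86), and Hmgb1-ps33, a pseudogene (0.85). Pycard, looked up after its values were seen, was most like 3 microglial markers of the list, the signalling adaptor Tyrobp (0.95), the purine receptor P2ry12 (0.94) and the complement gene C1qa (0.94). Of these, Tyrobp and C1qa passed the test at 3 days, by 0.91 (SE 0.23) and 1.12 (SE 0.25), and P2ry12 did not (0.83, SE 0.35). In the 12 control arrays alone, r with Fas was 0.62 for Tagln2, 0.22 for Trpc6 and 0.64 for Hmgb1-ps33. With Dap it was 0.92 for Clic1, 0.85 for Smc2 and 0.88 for RT1-DMb. With Pycard it was 0.91 for Tyrobp, 0.94 for P2ry12 and 0.91 for C1qa.

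The partner genes of these pathways moved little as a group at 3 days. Of 60 genes listed, 47 had a probe and 46 were tested, and 24 were higher and 22 lower than in 4d ctrl, with a median difference of 0.017 (-0.0082 over all probes). The 1 gene called was Mefv (pyrin), an inflammasome sensor of myeloid cells, which was higher, as were 2.00% of all probes. Without 4d ctrl 3, the 2 of 46 called were Mefv and Tnfrsf1b, where 683 of all 23240 probes tested were called.

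Mefv ran from 5.37 to 6.51 in 3d post and from 4.96 to 5.31 in 4d ctrl, a difference of 0.76 (SE 0.17, adjusted p = 0.0186 in limma), and its values lay near the low-value filter of 5.05. It was not called without 3d post 1 (0.0636) or 4d ctrl 1 or 4 (0.0525 and 0.0513).

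None of the 8 tested death ligands and other death receptors was called. Tnfrsf1b, the tumor necrosis factor receptor without a death domain, came closest at 0.28 (SE 0.076, adjusted p = 0.0507 in limma), and Faslg (-0.094, SE 0.13) and Tnf (-0.013, SE 0.11), the ligands of Fas and Tnfrsf1a, lay near 0. Tnfsf10 (TRAIL), another death ligand, had the largest difference of the 8 in size, -0.50 (SE 0.23, adjusted p = 0.318 in limma). Of the 11 receptor adaptors and kinases, 6 were higher and 5 lower and none was called, with Fadd, the adaptor that joins Fas to Casp8, at 0.023 (SE 0.15) and Ripk3, a kinase of necroptosis, at 0.42 (SE 0.16, adjusted p = 0.193). Of the 9 other caspases and apoptosome genes, none was called, and Casp4, an inflammatory caspase, gave 0.48 (SE 0.16, adjusted p = 0.127) and Apaf1 0.32 (SE 0.15), and Cycs, cytochrome c, gave -0.15 (SE 0.075). The 5 caspase inhibitors lay between -0.22 and 0.12, none called. Of the 13 inflammasome genes Mefv was the 1 called, and Txnip, which binds the sensor Nlrp3, gave 0.68 (SE 0.22, adjusted p = 0.115), Il1b, a substrate of Casp1, gave 0.38 (SE 0.14, adjusted p = 0.195), and Aim2, a DNA sensor, gave -0.42 (SE 0.22, adjusted p = 0.408). At 1 week, 2 weeks and 1 month none of the 46 was called, where 0% of all probes were.

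**Figure D5:**
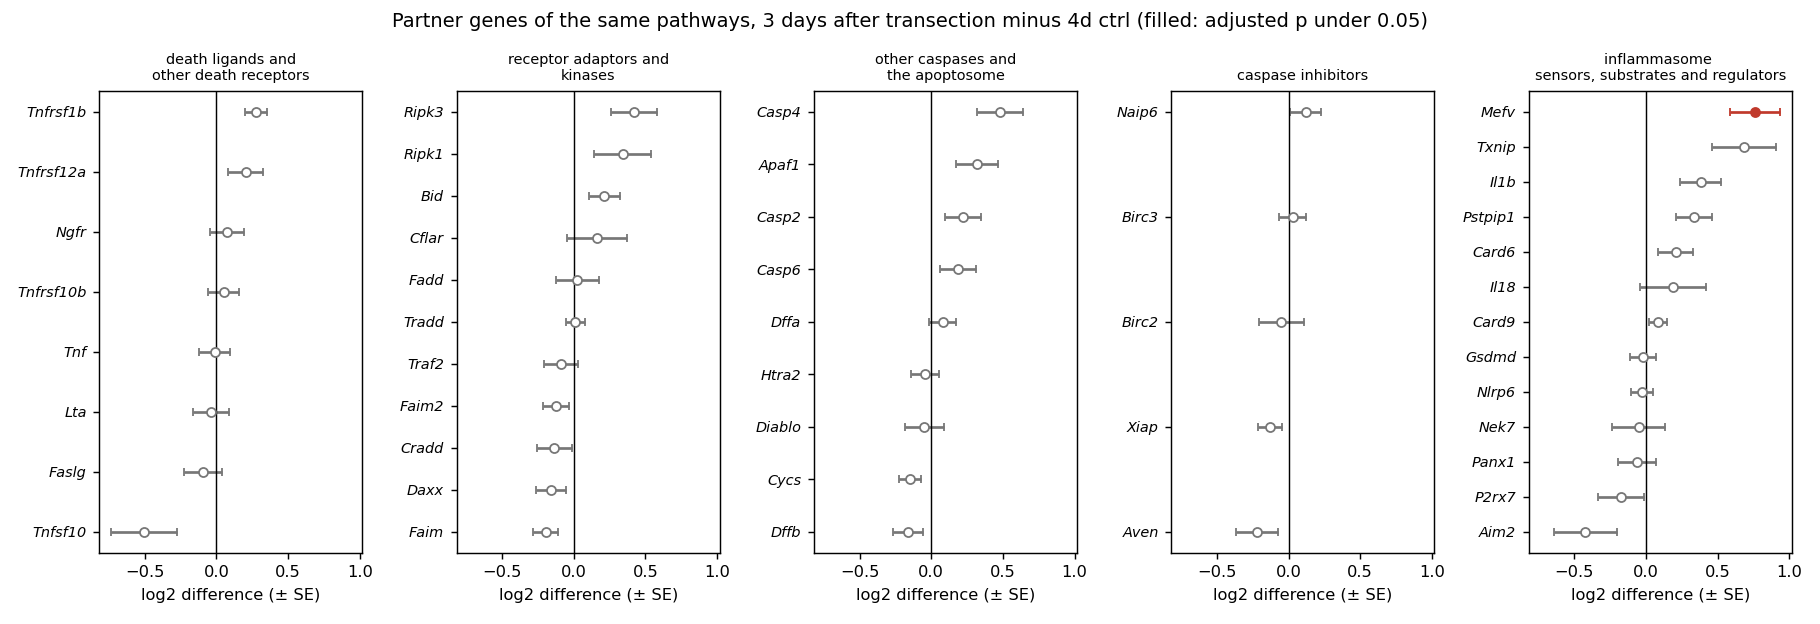
Log2 difference (3d post minus 4d ctrl, horizontal axes, ± SE) of 46 partner genes in 5 lists. The filled red point marks the 1 gene with an adjusted p under 0.05, Mefv, and the other points spread around 0.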

How the data were processed

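The authors deposited RMA intensities (GeneSpring GX) of 24 Rat Gene 1.0 ST arrays, hybridized with amplified RNA of laser-dissected neurons, and log2 of these intensities was taken here. The 15% of probes with the lowest mean log2 were left out, which left 23240 of 27342. Group means were fitted in limma 3.58.1 (R 4.3.3) over all 24 arrays with empirical Bayes moderation (17 residual and 3.64 prior degrees of freedom), and p-values were adjusted by Benjamini-Hochberg over all tested probes. Probes were named by the platform annotation (1 symbol for 15097 probes). The named genes are the 9 members, the partner genes called at 3 days and the 3 genes most like each called member, and some partner genes are not reported here. Members and lists were chosen with earlier results of these data known. The fit was tested on simulated data. Plots were made in Python 3.11.15 with matplotlib 3.10.9. Other settings were filters, normalizations, array weights, the compared groups alone, pooled controls, a replicate block, the methods' t-test and analysis of variance, and leaving out each array.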

Additional observations from a re-analysis of the deposited data

Results flagged for a closer look

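The array 4d ctrl 3 lay apart from the other 3 of its group in 2 members, Dap (7.11, with the others at 8.09 to 8.21) and Pycard (7.19, with the others at 8.25 to 8.35), by a gap to the next array that passed Dixon's 95% critical value. Of 50 groups of 4 looked at in this way (9 genes and the mean of the microglia and macrophage markers in 5 groups), these were the 2 with such an array, and chance gives about 1 in 20. Dap differed between 3d post and 1wk post by 0.91 (adjusted p = 0.0376 in limma), both groups being set against the same controls.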

How the results depend on the processing

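The count of members called at 3 days (2) was 1 without a filter on low probes (663 probes called, against 671). It was 4 with cyclic loess normalization (756 probes called) or with all 12 controls pooled (2117). It was 0 with array quality weights, with arrays centred on the median, with only the compared groups fitted (22 probes called), with the methods' t-test (0 probes called) and with 4d ctrl arrays 1 and 2 only, and leaving out 1 array gave 0 to 3. On average over the 4 times the count (0) was 1, Pycard, with a filter at the median, an intensity trend or array weights. It was also 1 with another quantile or cyclic loess normalization. These settings called 95 to 134 probes, against 94, and leaving out 1 array gave a count of 0 to 1. Between 3 days and 1 week it (1) was 0 with arrays centred on the median, with only these groups fitted and with the methods' t-test, and 0 to 1 with 1 array left out. Between controls the count (1) was summed over the control comparisons, so that a gene can count more than once. It was 4 with array weights (6339 probe calls) and 0 with the methods' t-test (1543). With 1 array left out it was 1 to 5, the 5 without 4d ctrl 3 (4928 probe calls). At 1 week, 2 weeks and 1 month the count of members called was 0 under every setting run. The labels do not say whether replicate numbers mark pairs or batches of rats. The mean r of deviations was 0.022 over 55 pairs of arrays with the same number and -0.0063 over 189 others. A mean near 0 does not settle whether rats were paired. With the replicate block 3 members were called at 3 days (759 probes called). It called 0 at 1 week, 2 weeks, 1 month and on average, 1 between 3 days and 1 week (395 probes), and 1 between controls (2555 probe calls). Casp9 at 1 month was then at -0.032.

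Some differences changed sign, most of them near 0, but among them were Tnfrsf1a at 1 week (0.28), Fas at 2 weeks (0.21) and Casp1 at 1 month (0.28). With all 12 controls pooled, Casp9 was -0.047 at 3 days and -0.014 at 1 month, Tnfrsf21 was -0.19 at 2 weeks and 0.16 at 1 month, and Dap was 0.41 at 1 week. With 4d ctrl arrays 1 and 2 only, Casp9 was -0.044 at 3 days, and at 1 week Tnfrsf1a was -0.15 and Casp8 -0.11. With array weights, Casp9 was -0.0054 at 3 days and Casp8 -0.057 at 1 week. At 1 week Dap was 0.031 with another quantile and 0.017 with cyclic loess normalization, and with arrays centred on the median Casp1 was -0.0067 and Casp8 -0.010. The mean of Casp9 was 0.0042 with cyclic loess. With 1 array left out, the range crossed 0 at 3 days for Tnfrsf21 (-0.021 to 0.13) and Casp9 (-0.043 to 0.070), at 1 week for Dap (-0.26 to 0.11), Casp1 (-0.17 to 0.17) and Casp8 (-0.14 to 0.070), and at 2 weeks for Fas (-0.080 to 0.50). At 1 month it crossed 0 for Siva1 (-0.087 to 0.028), Casp1 (-0.13 to 0.68), Casp8 (-0.053 to 0.33) and Casp9 (-0.058 to 0.070), and on average for Tnfrsf21 (-0.067 to 0.0055) and Casp9 (-0.038 to 0.019). The cause was not tested. Fas and Casp9 had no value with the filter at the median, which leaves them out.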
